A study of Homo sapiens with 6 samples.

Results

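Messages of 43 genes that license replication origins, build the replication fork or supply deoxynucleotides were followed in NCI-H292, an established human cell line of pulmonary mucoepidermoid origin. They were picked by gene symbol from a table of 60027 gene rows, with the highest mean row to be taken for a repeated symbol. All 43 symbols were found, each in 1 row, and all 43 passed the filter for testing, a mean of at least 1 TPM over the 6 libraries. TPM (transcript abundance scaled to a fixed library total) is a level per unit of gene length. There were 3 libraries from cells whose label gives knockdown of the lncRNA SH3PXD2A-AS1, and 3 from cells labelled negative control, called vector control in the series text. Both groups are the same cell line, and no other treatment, time or dose is given. The knockdown reagent, its delivery and the number of independent cultures or clones are not stated, so the spread behind each p-value is that among these libraries and may be technical. Values of 3 libraries are listed in the order of their replicate numbers. The series title ties SH3PXD2A-AS1 to proliferation and cell cycle progression, and the comparison asked how replication genes differed between knockdown and control cells.

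Sequencing depth cannot be read from TPM and is unknown. Between 15432 and 15883 genes reached 1 TPM per library. SH3PXD2A-AS1 itself had 0.96, 0.75 and 0.51 TPM in the 3 controls, and the 3 knockdowns had 0.37, 0.68 and 0.44 TPM. The groups overlapped, since knockdown replicate 2 lay above negative control replicate 3 (exact two-sided permutation test, p = 0.2, where 0.1 is the smallest p for 3 against 3 libraries). The RNA profile was epithelial: 6 of 6 epithelial markers (EPCAM, CDH1 and 4 keratins) reached a mean of 1 TPM and summed to 3221 to 3320 TPM in control and 3602 to 3690 TPM in knockdown libraries. Of 6 fibroblast, 6 blood and 4 endothelial markers, 1 in each list reached a mean of 1 TPM (COL1A1, CD14 and CDH5). LUM, PTPRC and HBB were listed at 0 in all 6 libraries. The fibroblast sum was 19.9 to 22.7 TPM in control and 23.2 to 26.6 TPM in knockdown libraries, nearly all of it COL1A1, and the part of other cell types in the results was not tested. Of the 6 epithelial markers 4 rose, against 11.3% of all genes tested: EPCAM, CDH1, KRT7 and KRT19 (limma adjusted p = 0.0364, 0.00895, 0.00136 and 0.0143). KRT8 stood at 110.5% and KRT18 at 97.2% of control (limma adjusted p = 0.0627 and 0.477). The mitochondrial share of TPM was 7.20% to 7.40% in knockdown libraries against 10.7% to 10.9% in controls. The part of that share in the results was not tested on its own, since the only rescaled fit left out mitochondrial and ribosomal protein genes together.

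Origins are licensed in G1, when the origin recognition complex, CDC6 and CDT1 load the ring-shaped MCM helicase onto DNA. In S phase, CDC45 and the GINS complex join that ring to form the active helicase, primase and the replicative polymerases copy the strands, and a loader places the PCNA clamp that holds polymerases on DNA. Ribonucleotide reductase, thymidylate synthase and thymidine kinase supply the building blocks, and transcription of many of these genes is controlled by the E2F factors. Replication genes are commonly read as markers of cycling cells in tumour lines.

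Of the 43 replication genes, 6 fell in knockdown libraries, each by less than 1.5-fold, and 0 rose. RRM1, RRM2, ORC1, RFC5, RPA1 and LIG1 fell, to between 72.5% and 82.7% of their control means. These 6 of 43 compare with 3.47% of all 15755 genes tested that fell (limma on log2(TPM + 1), Benjamini-Hochberg adjusted p under 0.05, n = 3 against 3), while 0 of 43 rose against 11.3% of all genes. Calls in either direction made up 14.8% of all genes. At an unadjusted limma p under 0.05, 14 members were lower, against 7.67% of all genes, and 1 was higher, against 22.7% of all genes. The median log2 fold change was -0.10 over the members and 0.08 over all genes tested, and 30 of 43 members had a value below 0, against 35.4% of all genes. In bulk RNA, fewer cells in S phase and less message per cell cannot be told apart.

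Every knockdown library lay below every control library for 16 of the 43 members, against 9.66% of all genes. Every knockdown library lay above every control library for 4 members (ORC6, CDC6, DTL and POLE), against 26.8% of all genes. The summed TPM of the 43 genes was 1539, 1540 and 1554 in negative control replicates 1 to 3 and 1442, 1390.5 and 1385 in knockdown replicates 1 to 3. The sum was thus lower in all 3 knockdown libraries, at 91.0% of the control mean.

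The count of falls changed with scaling and when 1 library was left out. Median ratio scaling gave 14 falls among members, quantile normalization 13, and rescaling without mitochondrial and ribosomal protein genes 13, each with 0 rises. The median log2 fold change of the members was then -0.20, -0.20 and -0.18, that of all genes -0.0087, -0.012 and 0.013, and 35, 34 and 33 of the 43 members had a value below 0. The 6 called genes fell in all 3 of these fits, joined in all 3 by MCM3, MCM7, CDT1, RFC3, PRIM1, POLD2 and TYMS. PCNA joined them after median ratio scaling only. Over all genes, calls went from 1780 rises and 547 falls to 977 and 1052, 1003 and 980, and 1072 and 823. Leaving out negative control replicate 1, 2 or 3 left 3, 2 and 2 falls among members, and leaving out knockdown replicate 1, 2 or 3 left 4, 2 and 2. Falls over all genes also dropped in these fits, from 547 to 310, 257 and 246, and to 366, 303 and 335. RRM1 fell in all 6 of these smaller fits, RFC5 in 4, ORC1, RPA1 and RRM2 in 1 each and LIG1 in 0.

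**Figure D1:**
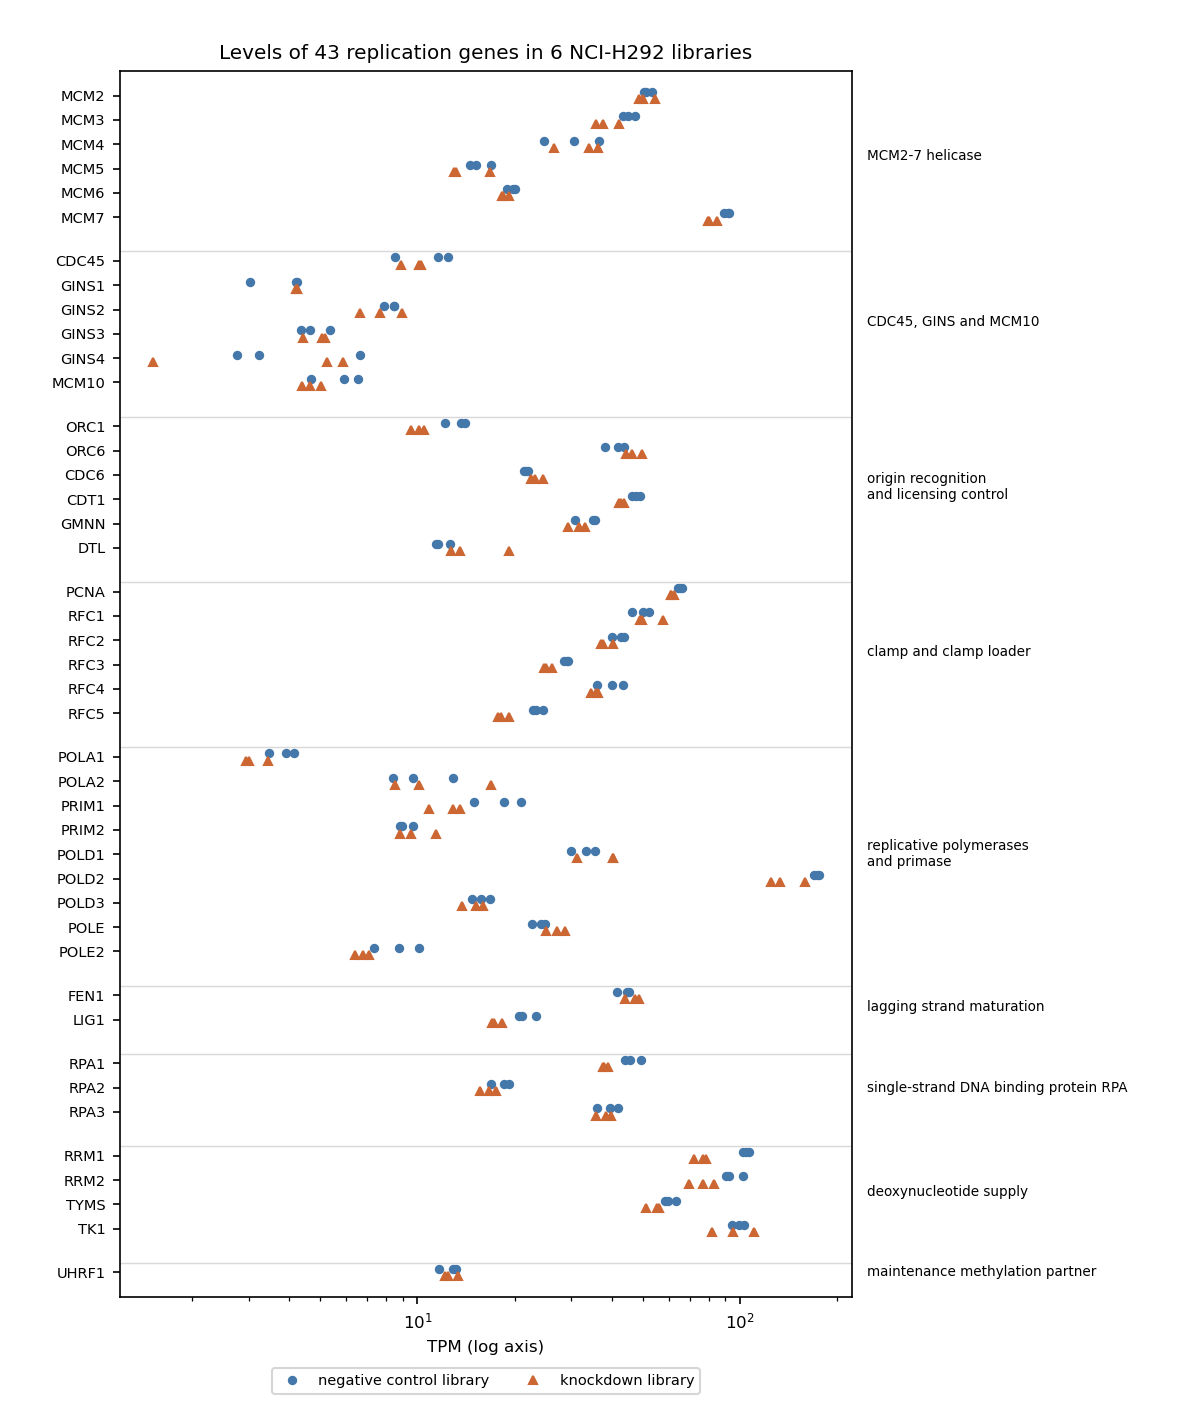
TPM of each of the 43 genes on a log axis in the 3 negative control libraries (circles) and the 3 knockdown libraries (triangles), grouped by role. Levels run from GINS1 at 3.82 TPM to POLD2 at 172 TPM in control means, and for most genes the 2 groups lie close together or overlap.

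**Figure D2:**
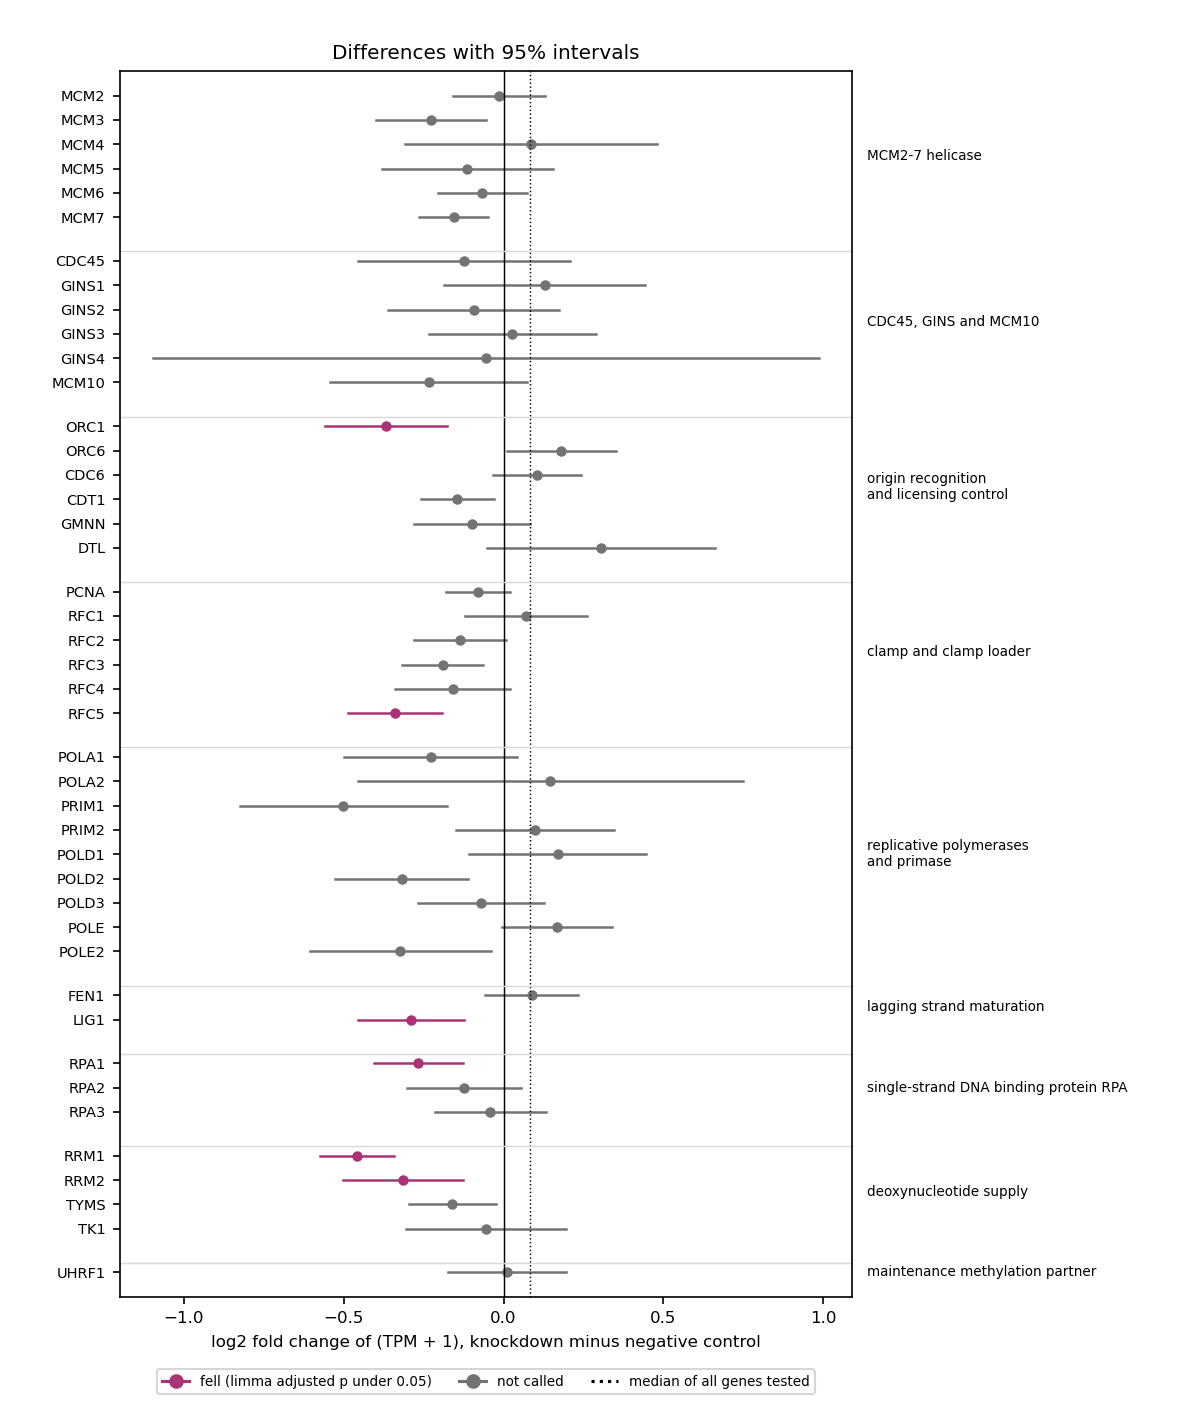
Log2 fold change of each of the 43 genes (knockdown minus negative control, on log2(TPM + 1)) with its 95% interval from limma, grouped by role. The 6 called genes lie left of 0 with their intervals, which are not adjusted for multiple testing. The intervals of 9 uncalled members also exclude 0, that of ORC6 on the right and the others on the left. The dotted line marks the median of all genes tested at 0.08.

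Among origin recognition and licensing genes, 1 of 6 fell. ORC1, an ATPase subunit of the origin recognition complex (ENSG00000085840, chromosome 1 at 52372829 to 52404459, minus strand, GRCh38), had 12.2, 13.6 and 14.0 TPM in the 3 controls, and the 3 knockdowns had 10.1, 9.56 and 10.5 TPM. All knockdown libraries lay below all control libraries, and the log2 fold change was -0.37 (SE 0.08, limma adjusted p = 0.0267). ORC6, its smallest and least conserved subunit, stood at 41.2 ± 2.85 and 46.8 ± 2.71 TPM (SD, n = 3; log2 fold change 0.18, limma adjusted p = 0.142), with all knockdown libraries above all control libraries. The helicase loaders CDC6 and CDT1 had log2 fold changes of 0.10 and -0.14 (limma adjusted p = 0.277 and 0.0942). GMNN, which encodes the CDT1 inhibitor geminin, stood at 33.7 ± 2.51 and 31.4 ± 1.91 TPM. The ratio of CDT1 to GMNN within a library, which does not depend on scaling, was 1.41 ± 0.0728 in control and 1.37 ± 0.103 in knockdown libraries. DTL, the adaptor that directs CDT1 to degradation, had the highest ratio to control of all members at 127%, but 1 library carried much of it: 13.5, 12.7 and 19.2 TPM in knockdown replicates 1 to 3 against 11.6, 12.6 and 11.4 TPM in control (limma adjusted p = 0.227).

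None of the 6 MCM ring genes was called. MCM7 had the smallest p of them, with 92.3, 91.4 and 89.0 TPM in the 3 controls and 84.7, 79.5 and 80.3 TPM in the 3 knockdowns. The groups did not overlap, and the log2 fold change was -0.16 (SE 0.05, limma adjusted p = 0.0656). MCM3 was next, at 45.1 ± 1.90 and 38.5 ± 3.26 TPM (log2 fold change -0.23, limma adjusted p = 0.0866), and both were called after each of the 3 rescalings. MCM2, MCM5 and MCM6 had 95% intervals that included 0, and that of MCM2 ran from -0.16 to 0.13 on the log2 scale. MCM4 varied most in this group, between 24.6 and 36.5 TPM in control libraries. Although the proteins form a ring with 1 copy of each, control levels per length ran from 15.5 TPM for MCM5 to 90.9 TPM for MCM7, 5.86 times as high. An antisense gene shares 22.7% of the exon bases of MCM2 and was at or below 0.33 TPM in all libraries.

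CDC45, the 4 GINS genes and MCM10, which complete and activate the helicase, had low levels, and 0 of 6 was called. MCM10, which binds the helicase at firing, had the smallest p, with 5.92, 4.69 and 6.57 TPM in the 3 controls and 4.38, 4.64 and 5.03 TPM in the 3 knockdowns. The groups overlapped (log2 fold change -0.23, SE 0.13, limma adjusted p = 0.274). GINS4 was the least precise member, with 2.77, 6.62 and 3.23 TPM in control and 5.25, 5.88 and 1.52 TPM in knockdown libraries. Its 95% interval, -1.10 to 0.99 on the log2 scale, is so wide that a difference was not detectable with these libraries. CDC45 stood at 10.8 ± 2.03 and 9.75 ± 0.750 TPM, and GINS1, GINS2 and GINS3 had log2 fold changes of 0.13, -0.09 and 0.03.

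Of the 9 polymerase and primase genes, 0 were called, and they pointed in different directions. PRIM1, the catalytic subunit of primase, had the lowest ratio to control of all members at 68.7%. It had 20.9, 18.6 and 14.9 TPM in the 3 controls, and the 3 knockdowns had 13.6, 12.9 and 10.9 TPM. The groups did not overlap, but its replicates spread widely and it missed the threshold (log2 fold change -0.50, SE 0.14, limma adjusted p = 0.0537). PRIM2, the other primase subunit, had a log2 fold change of 0.10. The DNA polymerase delta subunit POLD2, the most abundant member, stood at 172 ± 3.22 and 139 ± 17.8 TPM (log2 fold change -0.32, limma adjusted p = 0.0556), with knockdown libraries at 159, 132 and 125 TPM. The catalytic subunits POLD1 and POLE stood at 113% of control each (limma adjusted p = 0.378 and 0.174), while the accessory subunit POLE2 stood at 77.1% (limma adjusted p = 0.121). POLA1 and POLA2, of the polymerase that extends primers, stood at 81.5% and 115% of control. POLA2 shares 35.1% of its exon bases with the same-strand gene AP000944.2, which was at 11.6 to 14.4 TPM over both groups, and its own libraries ran from 8.39 to 16.9 TPM.

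In the clamp and clamp loader group, 1 of 6 fell. RFC5, a small subunit of replication factor C (ENSG00000111445, chromosome 12 at 118013588 to 118033130, plus strand, GRCh38), had 24.5, 22.8 and 23.3 TPM in the 3 controls, and the 3 knockdowns had 18.2, 19.2 and 17.7 TPM. The groups were well apart (log2 fold change -0.34, SE 0.06, limma adjusted p = 0.0149). Its exons share 5.7% of their bases with WSB2 on the opposite strand, which stood at 35.1 to 36.3 TPM in control and 32.8 to 36.8 TPM in knockdown libraries. The other small subunits RFC2, RFC3 and RFC4 stood at 90.8%, 87.2% and 89.0% of control (limma adjusted p = 0.183, 0.0579 and 0.212). RFC1, the large subunit, stood at 105% of control, with a 95% interval of -0.12 to 0.26 on the log2 scale. PCNA, the clamp and a common proliferation marker, was among the most precise members, at 65.0 ± 0.885 and 61.4 ± 0.749 TPM. Its groups did not overlap, but the 95% interval of its log2 fold change, -0.18 to 0.02, included 0 (limma adjusted p = 0.252).

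Lagging strand and single-strand binding genes had 1 fall each. LIG1, the ligase that joins Okazaki fragments (ENSG00000105486, chromosome 19 at 48115445 to 48170603, minus strand, GRCh38), had 23.3, 20.7 and 21.1 TPM in the 3 controls, and the 3 knockdowns had 17.1, 18.3 and 17.3 TPM. No knockdown library reached the control range (log2 fold change -0.29, SE 0.07, limma adjusted p = 0.0365). FEN1, the nuclease that trims flaps before ligation, stood at 43.8 ± 2.00 and 46.6 ± 2.37 TPM (limma adjusted p = 0.379). RPA1, the large subunit of the single-strand binding protein RPA (ENSG00000132383, chromosome 17 at 1829702 to 1900082, plus strand, GRCh38), had 43.9, 45.5 and 49.2 TPM in the 3 controls, and the 3 knockdowns had 37.5, 38.0 and 39.1 TPM. Its groups did not overlap (log2 fold change -0.27, SE 0.06, limma adjusted p = 0.0277). RPA2 and RPA3, the smaller subunits, stood at 91.3% and 97.0% of control (limma adjusted p = 0.32 and 0.744).

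Of the 4 deoxynucleotide supply genes 2 fell, and the 4 together summed to 84.1% of control. The RRM2 call was lost in 5 of the 6 fits with 1 library left out, with no filter, without the variance trend and under the replicate block. RRM1, the large catalytic subunit of ribonucleotide reductase (ENSG00000167325, chromosome 11 at 4094707 to 4138876, plus strand, GRCh38), had 102, 105 and 106 TPM in the 3 controls, and the 3 knockdowns had 72.0, 78.5 and 76.7 TPM. The gap between the groups was several times the spread within either (log2 fold change -0.46, SE 0.05, limma adjusted p = 0.00212). RRM2, the small subunit that carries the radical and whose message peaks in S phase (ENSG00000171848, chromosome 2 at 10120698 to 10131419, plus strand, GRCh38), had 90.3, 92.3 and 102 TPM in the 3 controls, and the 3 knockdowns had 82.7, 76.6 and 69.4 TPM. Its groups did not overlap either, with a wider spread (log2 fold change -0.31, SE 0.08, limma adjusted p = 0.0427). The ratio of RRM1 to RRM2 within a library was 1.10 ± 0.0539 in control and 1.00 ± 0.120 in knockdown libraries (SD, n = 3), and the ranges overlapped. TYMS, thymidylate synthase, stood at 60.5 ± 2.38 and 54.0 ± 2.75 TPM (limma adjusted p = 0.116). It shares 39.1% of its exon bases with ENOSF1 on the opposite strand, at 9.47 to 11.9 TPM over both groups, and whether counting used strand is not stated. RRM2 shares 20.2% of its exon bases with the same-strand AC007240.1, which was at or below 0.13 TPM. TK1, the salvage kinase, stood at 98.7 ± 4.43 and 95.6 ± 14.2 TPM, with knockdown replicate 1 above and knockdown replicate 2 below every control library.

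**Figure D3:**
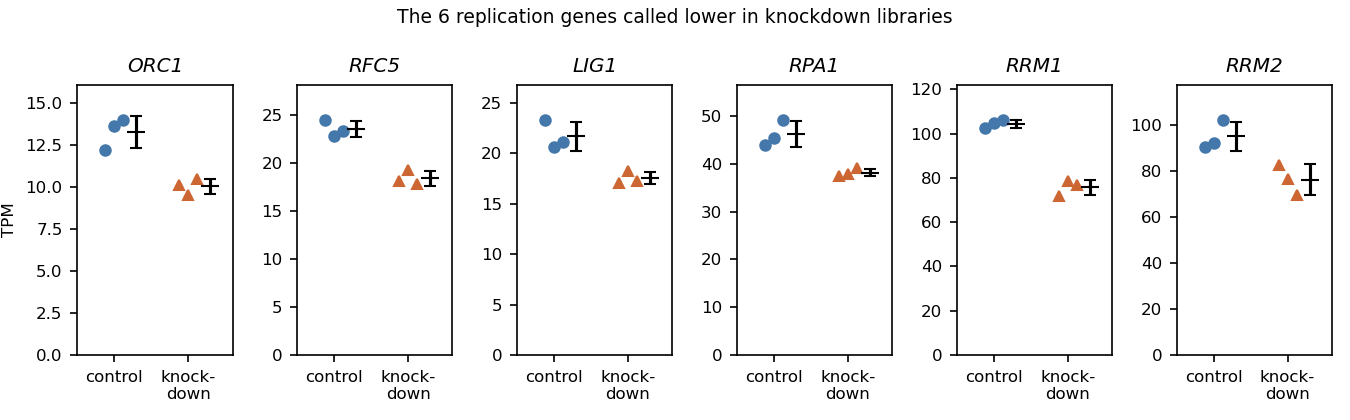
TPM of the 6 called genes in each negative control library (circles) and each knockdown library (triangles), with the mean and SD of 3 libraries as bars, on axes that start at 0. In every panel the 3 knockdown libraries lie below the 3 control libraries, with RRM1 at 72.0 to 78.5 TPM against 102 to 106 TPM.

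UHRF1, which brings the maintenance DNA methyltransferase to newly copied DNA and is itself an E2F target, had 13.2, 11.7 and 12.9 TPM in the 3 controls, and the 3 knockdowns had 13.4, 12.2 and 12.5 TPM. The groups overlapped, and the 95% interval of its log2 fold change was -0.17 to 0.19 (limma adjusted p = 0.948).

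Promoter sequence was examined because replication and mitosis genes are known for different promoter elements. RefSeq start sites gave a window of the 250 bases before the start (GRCh38.p14) for 37 of the 43 members, with the first listed start used where several are listed. Windows for GINS4, MCM4, MCM5, POLD3, RPA2 and RPA3 were not used here. An E2F word, defined as TTTCCCGC, TTTCGCGC, TTTGCCGC or TTTGGCGC on either strand, was in 14 of the 37 windows (37.8%) and in 3.72% of the windows of 15843 protein-coding genes. A CHR-type word, TTTGAA or TTTAAA on either strand, was in 3 member windows (8.11%), those of RRM1, RRM2 and TK1, and in 18.1% of all protein-coding windows. For 21 mitosis genes, 17 of which had a window, the counts were 0 for E2F words and 13 (76.5%) for CHR-type words. For 64 other replication genes, described below, 55 had a window, and the counts were 7 (12.7%) and 5 (9.09%). CCAAT was in 59.5% of member windows and 34.5% of all, and GGGCGG in 70.3% and 56.0%. Each of these was in 76.5% of mitosis windows. In windows of the other replication genes, CCAAT was in 47.3% and GGGCGG in 63.6%. Of the 14 members with an E2F word 1 fell (LIG1), and of the 23 without 5 fell, against 3.47% of all genes tested. The median log2 fold change was -0.12 in both sets. Only exact words were counted, and variants such as TTTGGCGG, present in the CDC6 and CDC45 windows, were left out. A window without a word was thus not shown to lack an E2F site. The windows of the genes with the most E2F words and of 3 called genes that hold a word are printed 5′ to 3′ with E2F and CHR-type words in capitals.
MCM6, chr2:135876444-135876693, minus strand: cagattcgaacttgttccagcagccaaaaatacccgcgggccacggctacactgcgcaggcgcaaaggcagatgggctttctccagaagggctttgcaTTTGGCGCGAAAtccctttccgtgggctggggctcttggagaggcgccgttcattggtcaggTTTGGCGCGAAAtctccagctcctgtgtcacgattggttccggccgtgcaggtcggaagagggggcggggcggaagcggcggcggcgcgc
MCM7, chr7:100101398-100101647, minus strand: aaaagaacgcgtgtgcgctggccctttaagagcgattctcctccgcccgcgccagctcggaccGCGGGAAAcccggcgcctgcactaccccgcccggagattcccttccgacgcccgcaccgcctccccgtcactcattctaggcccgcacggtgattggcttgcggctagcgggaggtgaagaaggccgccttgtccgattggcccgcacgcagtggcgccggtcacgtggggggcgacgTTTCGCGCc
LIG1, chr19:48170345-48170594, minus strand: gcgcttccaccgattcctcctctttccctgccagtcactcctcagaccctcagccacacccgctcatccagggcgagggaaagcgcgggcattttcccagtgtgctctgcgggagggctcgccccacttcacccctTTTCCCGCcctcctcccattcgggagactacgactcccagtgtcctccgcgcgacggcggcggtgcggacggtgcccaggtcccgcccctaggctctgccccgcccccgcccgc
RRM1, chr11:4094435-4094684, plus strand: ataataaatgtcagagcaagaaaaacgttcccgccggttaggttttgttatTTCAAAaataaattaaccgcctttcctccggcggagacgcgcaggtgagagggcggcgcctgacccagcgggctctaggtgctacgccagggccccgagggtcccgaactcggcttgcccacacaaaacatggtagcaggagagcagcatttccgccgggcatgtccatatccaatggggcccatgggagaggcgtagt
RRM2, chr2:10122489-10122738, plus strand: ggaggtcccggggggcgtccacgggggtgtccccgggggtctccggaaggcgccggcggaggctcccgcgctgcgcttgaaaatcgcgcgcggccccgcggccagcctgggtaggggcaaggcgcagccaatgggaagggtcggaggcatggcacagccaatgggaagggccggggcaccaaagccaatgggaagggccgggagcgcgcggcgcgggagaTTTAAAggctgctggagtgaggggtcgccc
In MCM6 the E2F words occur as 2 overlapping pairs on opposite strands, which begin at -152 and -90 from the start (a pair counts as 2 matches). The CHR-type word begins at position -199 from the start in RRM1 and at -30 in RRM2. The first listed start lies downstream of the GENCODE gene start in RRM2, ORC1, RFC5, RPA1, LIG1 and MCM7, among others. For RFC5 the window is 118016453 to 118016702, while the gene starts at 118013588. The word counts, also those by call, thus depend on the start used. A match describes the letters only.

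Of 64 genes in 6 roles outside the 43, 63 were tested, with a median log2 fold change of 0.04. Of the 63, 4 rose (6.35%) and 3 fell (4.76%), against 11.3% and 3.47% of all genes tested. DTYMK, the kinase that acts on the product of TYMS and TK1, fell from 51.1 ± 0.863 to 40.1 ± 2.59 TPM (limma adjusted p = 0.0125). SSRP1, a subunit of the FACT histone chaperone, fell from 204 ± 10.9 to 151 ± 1.70 TPM (limma adjusted p = 0.0028), while its partner SUPT16H stood at 102% of control (limma adjusted p = 0.797).

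The 4 rises came from 3 roles. SAMHD1, an enzyme that degrades deoxynucleotides and is also an interferon-responsive restriction factor, rose from 11.5, 17.1 and 15.0 TPM to 23.7, 24.4 and 24.8 TPM (log2 fold change 0.72, SE 0.13, limma adjusted p = 0.0155). POLD4, the smallest subunit of polymerase delta, rose from 96.6 ± 2.68 to 131 ± 10.7 TPM (limma adjusted p = 0.00808). E2F1, an activator of replication genes, rose from 7.91 ± 0.684 to 11.1 ± 0.0577 TPM, and E2F4, mostly a repressor, rose from 34.9 ± 0.973 to 45.4 ± 2.69 TPM (limma adjusted p = 0.0157 and 0.0104). Of 12 tested E2F and pocket protein genes 2 rose (16.7%, against 11.3% of all genes) and 0 fell. E2F2 stayed under the filter at 0.55 to 0.89 TPM. Leaving out knockdown replicate 3 left 2 rises in the list of 64, and 1155 instead of 1780 over all genes. No origin firing or fork checkpoint gene was called: the smallest p in those roles belonged to DBF4, the activator of the CDC7 kinase, at 23.7 ± 2.66 and 18.6 ± 2.05 TPM, and to TIMELESS, a fork protection factor, at 9.67 ± 0.375 and 8.69 ± 0.275 TPM (limma adjusted p = 0.0944 and 0.252).

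Mitosis genes, the nearest other cell cycle group, stood further from control than the replication genes. Of 21, 18 fell and 0 rose, all 21 had knockdown libraries below control libraries, and their median log2 fold change was -0.58, against 6 of 43 and -0.10 for the replication members. Their summed TPM was 66.9% of control, against 91.0%. The difference between the lists was not tested. TOP2A, which decatenates replicated chromosomes, stood at 64.0% of control and MKI67, a marker of cycling cells, at 66.6%. The lowest value in the replication list among called genes was that of RRM1 at 72.5%.

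**Figure D4:**
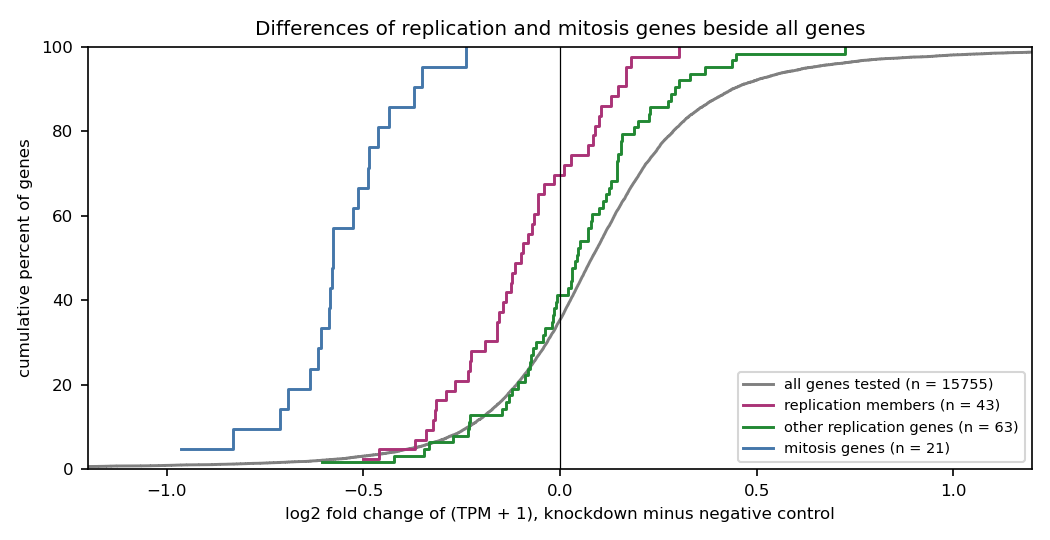
Cumulative percent of genes against log2 fold change (knockdown minus negative control, on log2(TPM + 1)) for all 15755 genes tested, the 43 replication members, 63 other replication genes and 21 mitosis genes. The members' curve lies left of that of all genes, with medians of -0.10 and 0.08, and the mitosis curve lies further left with a median of -0.58.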

How the data were processed

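Polyadenylated RNA of 3 knockdown and 3 negative control libraries was sequenced, per the labels' protocols, after TRIzol extraction, oligo(dT) selection, random priming, PCR and an Illumina TruSeq preparation. Tools named in the submitters' processing notes are fastp, HISAT and RSEM, without version or role. The authors deposited 1 table of TPM values per gene, with a gene length column, which was used only to describe rows. The notes name GRCm38.p5, a mouse build, while 58883 of 60027 IDs are human Ensembl IDs and 1144 carry the prefix MSTRG. The build behind the values is unsettled. Gene positions and exon overlaps therefore come from GENCODE 29 (GRCh38) by Ensembl ID, and promoter windows from RefSeq (GRCh38.p14).

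Columns were matched to samples by group and number. Genes with a mean of at least 1 TPM (15755 of 30849 above 0 in any library) entered a limma fit (version 3.58.1, R 4.3.3) of log2(TPM + 1), its prior variance following mean level, without covariates. Two-sided p-values were adjusted by Benjamini-Hochberg over all tested genes. Fold changes on log2(TPM + 1) understate low genes. Members, lists and tests were chosen with earlier results of these data known. All members are named. TPM of every library is given for called members and for the smallest p of each role. From the other lists, called genes and the smallest p of each role are named, except 1 that is not reported here. SUPT16H, TOP2A, MKI67 and the further members given in full were chosen after their values were seen. The fit was also run on simulated data, and its recovery of differences as small as those of the called members is not given here. Precision is the spread of 3 libraries, since TPM gives no counts. The highest share of identical values between any pair of libraries was 0.00895.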

Additional observations from a re-analysis of the deposited data

How the results depend on the processing

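No member called in the fit as reported changed sign in any alternative, and RRM1 was called in all 14 of them. The members' falls, 6 as reported, were 3 with no filter, 9 with a filter at a mean of 5 TPM (39 members tested; RFC3, PRIM1 and POLD2 gained), 3 with a prior spread without trend, 14 under median ratio scaling, 13 under quantile scaling and 13 with mitochondrial and ribosomal protein genes removed before rescaling. Over all genes, falls were 547 of 15755 as reported, 339 of 30849 with no filter and 573 of 11281 with the filter at 5 TPM. Without the trend they were 407. The members' falls ranged from 2 to 4 with 1 library left out, where fewer samples remain, and falls over all genes from 246 to 366. Other replication genes had 5 falls instead of 3 after median ratio scaling, and 2 to 4 rises instead of 4 with 1 library left out. Of 71 rows annotated to DNA replication, 9 fell instead of 3 after median ratio scaling. SH3PXD2A-AS1 stood at 54.7% to 78.8% of control with 1 library left out and 67.1% as reported. In 598 values of members under alternatives, 28 gained a call, 33 lost it and 27 changed sign, none of the last for a called member, and the cause was not tested. After median ratio scaling, log2 fold changes turned to -0.0136 for MCM4, -0.0566 for GINS3, -0.0292 for RFC1, -0.0110 for FEN1 and -0.0838 for UHRF1. After quantile normalization they were -0.00318 for MCM4, -0.0862 for GINS3, -0.0129 for RFC1 and -0.0869 for UHRF1, and after rescaling -0.0395 for GINS3, -0.00698 for RFC1 and -0.0641 for UHRF1. With 1 library left out, values ran from -0.0568 to 0.22 for MCM4, -0.0246 to 0.10 for GINS3, -0.32 to 0.40 for GINS4, -0.10 to 0.00636 for RPA3, -0.0397 to 0.0426 for UHRF1, -0.0634 to 0.0210 for MCM2, -0.19 to 0.00112 for GINS2, -0.00404 to 0.11 for RFC1, -0.16 to 0.0496 for TK1 and -0.12 to 0.34 for POLA2. The replicate block left 3 falls among members and 343 over all genes. Among members, ORC1, RFC5, LIG1 and RRM2 were lost and PRIM1 was gained. Same-numbered libraries did not deviate together (r = 0.0172, -0.012 and 0.0448 across genes), so the numbers were not taken as pairs. Depth is unknown, and replicate spread limits GINS4, POLA2 and MCM4 most.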

Other observations

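Exon overlap bears on several members when strand is unknown: 14 of 43 share exon bases with a gene on the opposite strand, 6 with a gene on the same strand and 25 with none in GENCODE 29. TPRA1, which overlaps MCM2 by 0.9% of its exon bases, stood at 59.1 to 66.7 TPM in control and 96.0 to 105 TPM in knockdown libraries, while MCM2 stood at 99.0% of control. NACA, which shares 1.4% of the exon bases of PRIM1 and is far more abundant, stood at 1420 to 1478 TPM in control and 1261 to 1332 TPM in knockdown libraries. Both were picked out after their values were seen. Annotated pseudogenes named for 8 members were at 0 TPM in every library except those of RRM2, which reached 0.29 TPM.

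Of 71 rows that the table's own pathway column assigns to DNA replication, 37 were tested, with a median log2 fold change of -0.04. Of the 37, 3 fell (RFC5, LIG1 and RPA1, 8.11%) and 1 rose (POLD4, 2.7%), against 3.47% and 11.3% of all genes. The 11 tested rows outside the members had a median of 0.01. They included SSBP1, the mitochondrial single-strand binding protein, at 153 ± 9.44 and 151 ± 4.11 TPM (SD, n = 3), and RNASEH2C, a subunit of the enzyme that removes ribonucleotides from DNA, at 44.2 ± 4.91 and 53.9 ± 4.99 TPM (limma adjusted p = 0.109).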
